A study of Homo sapiens with 32 samples.

Results

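The 4 human kinases that phosphorylate the alpha subunit of translation factor eIF2 are GCN2 (gene EIF2AK4), HRI (EIF2AK1), PKR (EIF2AK2) and PERK (EIF2AK3). Their genes were taken by symbol, and all 4 were found among the 58721 genes of the RNA-Seq and Subunit-Seq tables. Each kinase answers a different stress: GCN2 senses uncharged tRNA and stalled ribosomes, HRI low heme and mitochondrial stress, PKR double-stranded RNA, and PERK unfolded protein in the endoplasmic reticulum (ER). All of them phosphorylate the same residue of eIF2, which lowers general protein synthesis and favours translation of mRNAs such as ATF4. This is the integrated stress response.

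All samples were HEK293T cells, a human embryonic kidney line. Cells received 600 nM thapsigargin for 16 h (Tg), which blocks the calcium pump of the ER and so activates PERK, or the same volume of the solvent DMSO. RNA-Seq had 4 groups of 2 libraries: DD Tg, DD DMSO, WT Tg and WT DMSO, where DD cells express the phosphomimetic eIF3d with S528D and S529D and WT cells the wild-type protein. eIF3d is a cap-binding subunit of the translation factor eIF3. Subunit-Seq used cells with HA-tagged eIF3d that carries a TEV protease site. Its 4 groups of 2 libraries were IP Tg, IP DMSO, input Tg and input DMSO, where the immunoprecipitate (IP) is RNA held by the cap-binding domain of eIF3d. For m6A-eCLIP, a crosslinking method that locates methylated adenosines, 1 list of sites was given each for DD Tg, DD DMSO, WT Tg and WT DMSO. The labels do not say that replicates came from separate cultures, so p-values measure the spread between these libraries, which may be technical. They also do not say how many clones stand behind each line.

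Depth was 4508484 to 10163215 reads in RNA-Seq and 5102853 to 16860639 in Subunit-Seq. Input DMSO replicate 2 stood apart, with 6395 genes at 1 RPKM (reads scaled by gene-model length and library total) or more, against 8503 to 11452 in the other inputs. Among HEK293T markers VIM ranged from 15.2 to 55.0 RPKM, PAX2 was at most 2.09 RPKM and LHX1 at most 0.815 RPKM. NEFM was at 31.9 to 62.2 RPKM in the RNA-Seq libraries of replicate 1 and at 0.0693 to 1.23 RPKM in those of replicate 2. In Subunit-Seq NEFM averaged 51.6 ± 49.0 RPKM in IP Tg and 44.9 ± 36.6 RPKM in IP DMSO (SD, n = 2 each). In the inputs it averaged 5.76 ± 1.73 RPKM with Tg and 5.00 ± 6.27 RPKM with DMSO. NEFL in RNA-Seq averaged 18.1 ± 19.0 RPKM in DD Tg and 32.4 ± 36.5 RPKM in DD DMSO. In WT cells NEFL averaged 22.3 ± 25.4 RPKM with Tg and 30.5 ± 39.4 RPKM with DMSO. Of the markers of other cell types, the fibroblast gene COL1A1 was at 13.2 to 19.0 RPKM in RNA-Seq replicate 1 and at 0.0904 to 0.293 RPKM in replicate 2, and in Subunit-Seq, with replicate 1 before replicate 2 here and below, at 1.30 and 0.657 RPKM in IP Tg, 49.9 and 2.19 RPKM in IP DMSO, 0.319 and 0.237 RPKM in input Tg, and 2.89 and 0.0837 RPKM in input DMSO. The blood gene PTPRC was at 0 in all 16 libraries, and the liver gene ALB was at most 0.109 RPKM. Whether replicates 1 and 2 came from the same stock of cells is not stated, and the part of these marker differences between replicates, and between treatments in the IP, in the kinase values was not tested. EIF3D itself, at 64.3 and 29.2 RPKM in DD Tg, 37.5 and 76.6 RPKM in DD DMSO, 44.3 and 91.2 RPKM in WT Tg and 68.3 and 69.6 RPKM in WT DMSO, cannot show the genotype, because gene-level reads of native and introduced copies cannot be told apart.

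The kinase genes lie on 3 chromosomes of GRCh38. EIF2AK4 (ENSG00000128829.11) spans chr15:39934115-40035591 on the plus strand and has the longest gene model, 11957 bases. EIF2AK1 (ENSG00000086232.12) spans chr7:6022247-6059175 on the minus strand (5550 bases), where its last 1588 bases overlap AIMP2 on the plus strand. The coding gene ANKRD61, whose strand was not listed, lies within this span over 5177 bases. EIF2AK2 (ENSG00000055332.17) spans chr2:37099210-37156980 on the minus strand (10753 bases) and overlaps the plus-strand coding gene GPATCH11 by 35 bases. EIF2AK3 (ENSG00000172071.11) spans chr2:88556741-88628145 on the minus strand (5434 bases) and overlaps the plus-strand RNAs EIF2AK3-AS1 and EIF2AK3-DT. The RNA-Seq kit does not mark strand, so in the shared stretches reads of EIF2AK1, EIF2AK2 and EIF2AK3 cannot be told apart from those of these partners. The Subunit-Seq kit marks strand, but how reads were counted is not given in the sources used here.

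The promoters of 3 of the 4 genes were in the RefSeq table (GRCh38.p14); EIF2AK1 was not. They are shown because ER stress elements in promoters contain CCAAT, and the genes differ in that motif. EIF2AK3 is listed there with a start inside the gene span given above, so that its stretch begins 431 bases downstream of the 5′ end of the span. Each line holds the 250 bases before the start used in that table, written 5′ to 3′ on the strand of the gene, with CCAAT (or ATTGG, the same motif on the other strand) in capitals. The stretches are chr15:39933865-39934114 (plus strand), chr2:37156981-37157230 (minus strand) and chr2:88627465-88627714 (minus strand).
EIF2AK4 promoter: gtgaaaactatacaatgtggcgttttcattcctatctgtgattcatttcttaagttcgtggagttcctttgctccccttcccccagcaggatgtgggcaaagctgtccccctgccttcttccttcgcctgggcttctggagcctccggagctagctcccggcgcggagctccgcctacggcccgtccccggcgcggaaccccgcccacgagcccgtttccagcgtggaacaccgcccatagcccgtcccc
EIF2AK2 promoter: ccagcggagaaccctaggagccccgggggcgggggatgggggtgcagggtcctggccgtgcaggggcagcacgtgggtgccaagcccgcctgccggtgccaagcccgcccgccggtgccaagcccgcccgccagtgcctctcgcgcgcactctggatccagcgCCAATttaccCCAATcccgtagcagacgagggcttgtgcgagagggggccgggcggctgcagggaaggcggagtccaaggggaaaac
EIF2AK3 promoter: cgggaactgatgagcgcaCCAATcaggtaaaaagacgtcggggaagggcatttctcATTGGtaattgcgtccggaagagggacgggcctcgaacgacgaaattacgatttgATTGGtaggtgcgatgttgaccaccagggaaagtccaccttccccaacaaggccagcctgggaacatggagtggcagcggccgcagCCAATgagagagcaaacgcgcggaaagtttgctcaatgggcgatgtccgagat
EIF2AK3 held 4 matches, which begin 232, 194, 139 and 53 bases before the start. EIF2AK2 held 2, which begin 87 and 77 bases before it, and EIF2AK4 held 0. At least 1 match was present in 33.0% of 27305 promoters of the same length. Neither the ER stress element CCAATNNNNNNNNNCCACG (0.0806% of promoters, either strand) nor the unfolded protein response element TGACGTGG (0.667%) was found in the 3 stretches. GC content was 61.6% for EIF2AK4, 72.4% for EIF2AK2 and 55.2% for EIF2AK3, against a median of 58% over all promoters. These letters are a description and do not show that a factor binds.

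EIF2AK1 was the most abundant of the 4 kinase RNAs per length in 16 of 16 libraries. In RNA-Seq it had 7.13 and 9.35 RPKM in DD Tg, 6.86 and 4.22 RPKM in DD DMSO, 7.23 and 4.34 RPKM in WT Tg, and 5.77 and 2.56 RPKM in WT DMSO. It made up 55.5 to 69.0% of the RPKM summed over the 4 genes. EIF2AK2 had 0.915 and 3.56 RPKM in DD Tg, 2.61 and 1.07 RPKM in DD DMSO, 2.16 and 0.775 RPKM in WT Tg, and 1.72 and 0.536 RPKM in WT DMSO. EIF2AK4 had 1.66 and 2.30 RPKM in DD Tg, 1.67 and 0.755 RPKM in DD DMSO, 1.74 and 0.589 RPKM in WT Tg, and 1.43 and 0.519 RPKM in WT DMSO. In the WT groups and in DD DMSO every kinase was lower in replicate 2 than in replicate 1, while DD Tg replicate 2 held the highest value of EIF2AK4, EIF2AK1 and EIF2AK2. Mitochondrial rRNA moved with these values: it took 32.1 and 57.3% of reads in DD Tg, 42.2 and 25.4% in DD DMSO, 49.8 and 29.9% in WT Tg, and 43.8 and 34.1% in WT DMSO. In each group the replicate with the larger share had more EIF2AK4, EIF2AK1 and EIF2AK2. With mitochondrial genes left out of the totals, limma again called 0 of these 3 kinases in any RNA-Seq contrast, and 0 of all 12113 genes tested. EIF2AK3 was lowest on average, with 1.21 and 0.866 RPKM in DD Tg, 1.22 and 0.378 RPKM in DD DMSO, 1.53 and 0.590 RPKM in WT Tg, and 0.864 and 0.245 RPKM in WT DMSO, the last from 6 reads. Of the neighbours EIF2AK2 and EIF2AK4, EIF2AK2 was the higher in 7 of 8 libraries. Their ranges of 0.536 to 3.56 RPKM and 0.519 to 2.30 RPKM overlapped, but these mix differences between libraries with those between genes. The difference between these 2 genes was not tested.

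**Figure D1:**
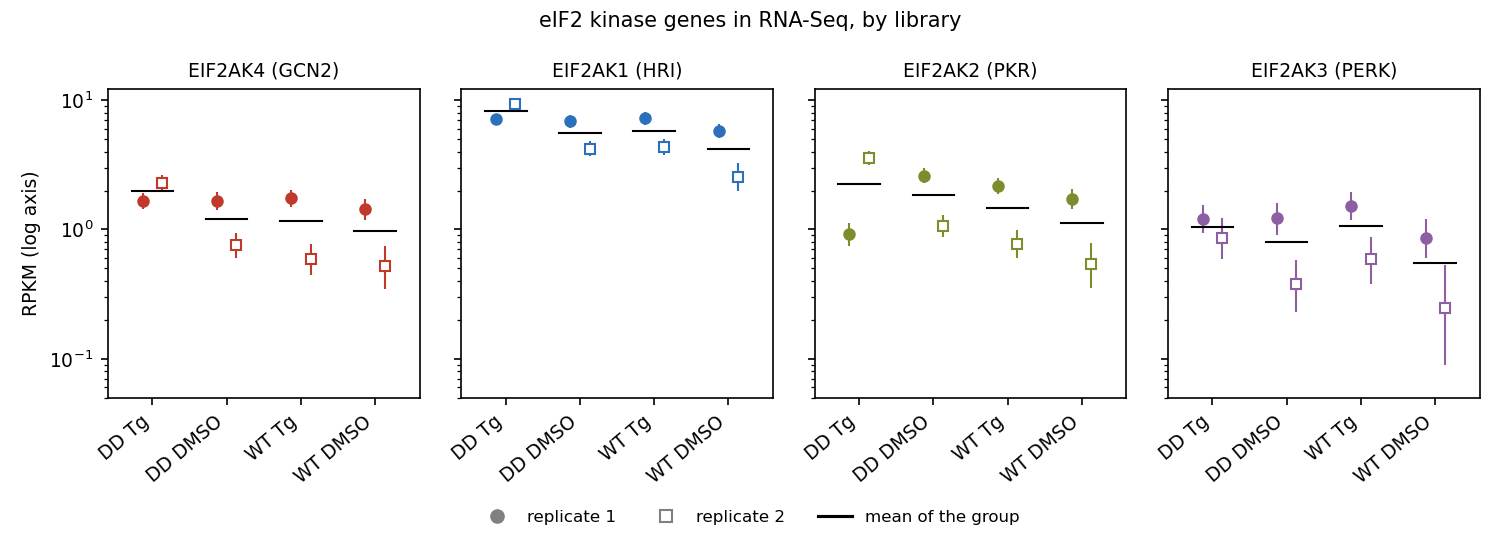
RPKM (log axis) of the 4 kinase genes in each RNA-Seq library, by genotype and treatment; filled circles are replicate 1, open squares replicate 2, bars on points the exact 95% Poisson interval of the reads (counting error only) and black lines the mean of 2 libraries. EIF2AK1 is highest throughout. Replicate 2 lies below replicate 1 in 3 of the 4 groups for EIF2AK4, EIF2AK1 and EIF2AK2, and in all 4 for EIF2AK3.

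The first question was whether thapsigargin changed the RNA of the kinases that sense the stress. In DD cells EIF2AK4 averaged 1.98 ± 0.449 RPKM with Tg and 1.21 ± 0.645 RPKM with DMSO (SD, n = 2 each), a difference of 0.45 ± 0.48 (SE) on the log2(RPKM + 1) scale, which is used for all differences and understates those of low genes. EIF2AK1 differed by 0.52 ± 0.58 and EIF2AK2 by 0.11 ± 0.59, against a median of 0.02 over all genes tested. In WT cells EIF2AK4 averaged 1.16 ± 0.812 RPKM with Tg and 0.976 ± 0.645 RPKM with DMSO, a difference of 0.12 ± 0.48. EIF2AK1 differed by 0.43 ± 0.58 and EIF2AK2 by 0.21 ± 0.59 there, against an all-gene median of 0.12. Limma called 0 of the 3 kinases tested and 0 of 9637 genes (0%) at an adjusted p under 0.05 in either genotype, with 25 genes at an unadjusted p under 0.05 in DD cells and 24 in WT cells. EIF2AK3 fell short of the mean of 1 RPKM that a test required (0.863 RPKM over the 8 libraries) and is described only.

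Within a replicate number, where Tg and DMSO libraries of the same number are set side by side, the ratio of EIF2AK3 with Tg to DMSO was 0.992 in replicate 1 of DD cells (95% counting interval 0.679 to 1.46) and 2.29 in replicate 2 (1.26 to 4.24). In WT cells it was 1.77 (1.16 to 2.76) in replicate 1 and 2.41 (0.964 to 7.17) in replicate 2. PERK mRNA was thus listed higher with Tg in 3 of the 4 RNA-Seq pairs, but relative to the all-gene median of the pair it lay at −0.12 and 0.52 in DD cells and at 0.44 and 0.11 in WT cells. EIF2AK4 was likewise higher with Tg in 3 of the 4 pairs, at 0.997 and 3.04 times DMSO in DD cells and 1.21 and 1.13 times in WT cells. Relative to the all-gene median EIF2AK4 lay at −0.12 and 0.99 in DD cells and at 0.17 and −0.18 in WT cells. EIF2AK1 was above DMSO in all 4 pairs, at 1.04 (0.892 to 1.21) and 2.22 times DMSO in DD and 1.25 and 1.70 times in WT cells. Relative to the all-gene median of the pair EIF2AK1 lay at −0.067 and 1.07 in DD and at 0.28 and 0.34 in WT cells. In DD cells both its Tg libraries were above both DMSO libraries, as for 8.59% of all genes tested. EIF2AK2 went opposite ways in DD cells, at 0.351 (0.274 to 0.447) of DMSO in replicate 1 and 3.33 times (2.65 to 4.19) in replicate 2. Counting intervals cover neither the spread between cultures nor that of library preparation.

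The comparison of genotypes asked whether phosphomimetic eIF3d altered the kinases. With Tg the differences of DD from WT were 0.51 ± 0.48 for EIF2AK4, 0.47 ± 0.58 for EIF2AK1 and 0.32 ± 0.59 for EIF2AK2, against an all-gene median of 0.05. With DMSO they were 0.17 ± 0.48 for EIF2AK4, 0.38 ± 0.58 for EIF2AK1 and 0.42 ± 0.59 for EIF2AK2, against an all-gene median of 0.13. Limma called 0 kinases and 0% of genes in both, and 82 genes had an unadjusted p under 0.05 with Tg and 68 with DMSO. Both DD Tg libraries were above both WT Tg libraries for 0 of the 4 kinases and for 10.2% of all genes tested. With Tg, EIF2AK4 in DD was at 0.956 of WT (0.776 to 1.18) in replicate 1 and at 3.90 times WT (2.87 to 5.37) in replicate 2. The differences with Tg moved with single libraries. Without DD Tg replicate 2 EIF2AK4 differed by 0.35, EIF2AK1 by 0.29 and EIF2AK2 by −0.31, and without WT Tg replicate 2 they differed by 0.11, 0.16 and −0.097. The interaction, the Tg response in DD minus that in WT, was 0.34 ± 0.68 for EIF2AK4, 0.09 ± 0.82 for EIF2AK1 and −0.10 ± 0.83 for EIF2AK2, and limma called 0 genes (0%, 21 at an unadjusted p under 0.05).

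The second assay asked which RNAs the cap-binding domain of eIF3d holds. EIF2AK4 was higher in the IP than in input. It had 7.66 and 5.02 RPKM in IP Tg and 7.60 and 6.26 RPKM in IP DMSO, against 2.75 and 0.584 RPKM in input Tg and 3.62 and 0.195 RPKM in input DMSO, the last from 34 reads. Every IP library was above every input library, and the 4 IP values lay within 5.02 to 7.66 RPKM while the inputs ranged from 0.195 to 3.62 RPKM. Over both treatments the difference between IP and input was 1.66 ± 0.43 (SE), with a limma adjusted p of 0.000804, and it was above 0 in 4 of 4 pairs. It passed as well without any 1 of the 8 libraries (adjusted p 0.00183 to 0.0499), but 50.4% of the 9813 genes tested passed in this contrast, 46.5% with the IP higher and 3.85% with it lower. Under median-of-ratios scaling the balance turned round, with 642 genes called higher and 1516 lower, against 4567 higher and 378 lower here, and the all-gene median was −0.12. The EIF2AK4 difference lay at the 84.1 percentile of all genes, whose median was 0.92.

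EIF2AK1 had 40.4 and 21.6 RPKM in IP Tg and 23.4 and 25.02 RPKM in IP DMSO, against 16.2 and 6.97 RPKM in input Tg and 20.3 and 2.54 RPKM in input DMSO. Its IP libraries were also all above its inputs, by 1.46 ± 0.47 over both treatments (limma adjusted p = 0.00673). That call ended without input DMSO replicate 2 (0.97, limma adjusted p = 0.0652), IP DMSO replicate 2 (1.06, 0.168) or IP Tg replicate 2 (1.38, 0.0946). EIF2AK2 had 3.84 and 3.39 RPKM in IP Tg and 2.86 and 4.21 RPKM in IP DMSO, against 4.06 and 0.410 RPKM in input Tg and 2.80 and 0.236 RPKM in input DMSO. Here the groups overlapped, because in replicate 1 the IP was at 0.946 of input with Tg (0.812 to 1.10) and 1.02 with DMSO (0.862 to 1.21), and the difference of 0.92 ± 0.42 did not pass (limma adjusted p = 0.058), except without IP DMSO replicate 1 (1.33, limma adjusted p = 0.022). EIF2AK3 had 3.01 and 4.92 RPKM in IP Tg and 1.53 and 2.15 RPKM in IP DMSO, against 0.902 and 0.643 RPKM in input Tg and 0.226 and 0.063 RPKM in input DMSO, the last 2 from 10 and 5 reads. All its IP libraries were above all its inputs. Below the filter in the inputs (mean 0.458 RPKM), it was tested only with no filter on low values. There it differed by 1.38 ± 0.30 (limma adjusted p = 0.0288). That fit called 5381 of 23159 genes, 5137 with the IP higher and 244 with it lower, and the all-gene median was 0.43. Of the 3 genes above the filter, 2 had every IP library above every input, as had 42% of all genes tested.

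**Figure D2:**
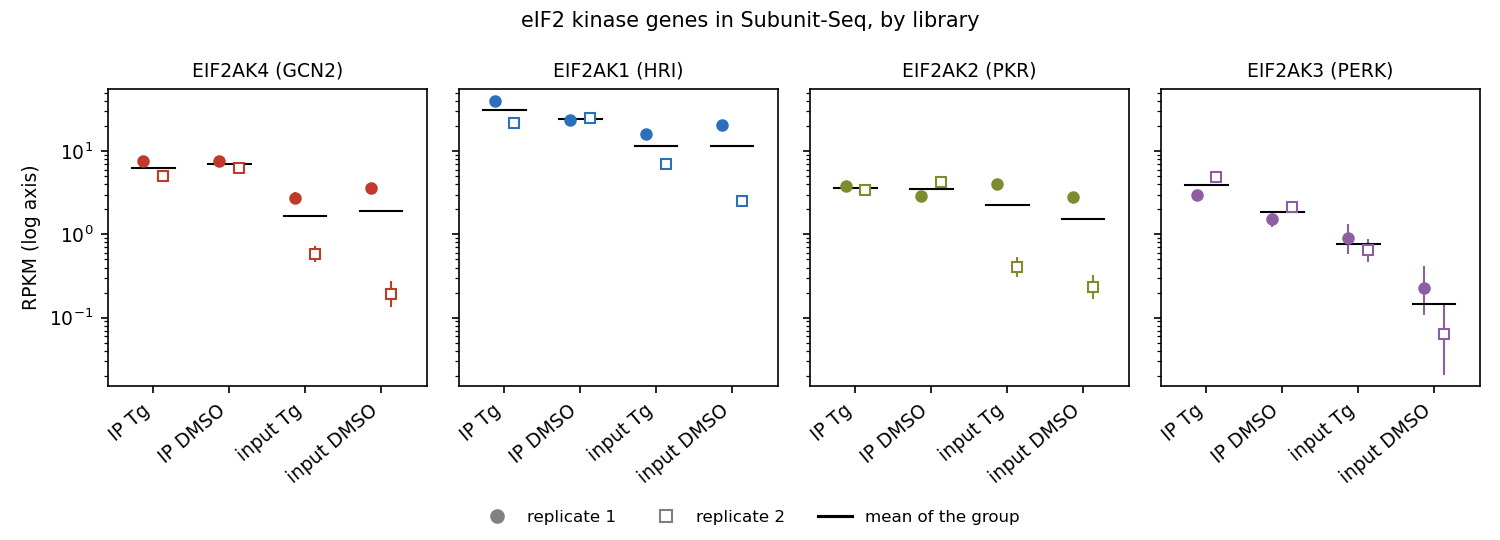
RPKM (log axis) of the 4 kinase genes in each Subunit-Seq library, with symbols as in the plot of RNA-Seq levels. The IP values of EIF2AK4 sit between 5.02 and 7.66 RPKM, above all 4 inputs, and the inputs of replicate 2 lie below those of replicate 1 for each gene.

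Taken by treatment, EIF2AK4 was higher in IP than in input by 1.57 ± 0.61 with Tg (limma adjusted p = 0.0569) and by 1.75 ± 0.61 with DMSO (limma adjusted p = 0.0275), so that 0 of 3 kinases passed with Tg (16.2% of genes) and 1 of 3 with DMSO (23.2%). EIF2AK1 differed by 1.39 (adjusted p = 0.122, limma) with Tg and by 1.53 (0.0717) with DMSO, and EIF2AK2 by 0.79 (0.325) with Tg and by 1.05 (0.167) with DMSO. The EIF2AK4 call with DMSO ended without input DMSO replicate 2 (1.11, limma adjusted p = 0.408), without IP DMSO replicate 2 (1.25, limma adjusted p = 0.582), without any 1 of the 4 Tg libraries (1.75, limma adjusted p 0.0718 to 0.0877), and under median-of-ratios scaling (0.98, limma adjusted p = 0.191). It also ended without the replicate block (limma adjusted p = 0.142), with no filter (0.147), with a pseudocount of 0.1 (0.0506), with voom (0.0502) and with the spread of each gene alone (0.272). The replicate differences of IP DMSO and input DMSO, which the block pairs, correlated across genes at 0.002. That scaling also ended the calls over both treatments, at 0.81 for EIF2AK4 (limma adjusted p = 0.0874) and 0.19 for EIF2AK1 (0.685), as did the use of the spread of each gene alone.

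The size of the recovery differed between replicate numbers. The IP-to-input ratio of EIF2AK4 RPKM was 2.78 (counting interval 2.37 to 3.28) and 8.59 (6.87 to 10.9) with Tg, and 2.10 (1.86 to 2.38) and 32.2 (22.9 to 46.7) with DMSO. In all 4 pairs EIF2AK4 was above the all-gene median of its pair on the log2(RPKM + 1) scale, by 0.35 and 1.08 with Tg and by 0.52 and 1.03 with DMSO. EIF2AK1 was above it by 0.41 and 0.66 with Tg and lay at −0.19 and 1.31 from it with DMSO. EIF2AK2 lay at −0.92 and 0.79 with Tg and at −0.36 and 0.51 with DMSO. EIF2AK3, below the filter, lay at 0.22 and 1.01 with Tg and at 0.67 and −0.0055 with DMSO, the last from 5 input reads. EIF2AK4 was thus the only one of the 3 tested kinases above the all-gene median in each of the 4 pairs. The share of all genes tested that were so in each of the 4 pairs was not counted. Its percentiles among all genes tested were 67.6 and 86.1 with Tg and 77.7 and 82.1 with DMSO. The difference between kinases was not tested.

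**Figure D3:**
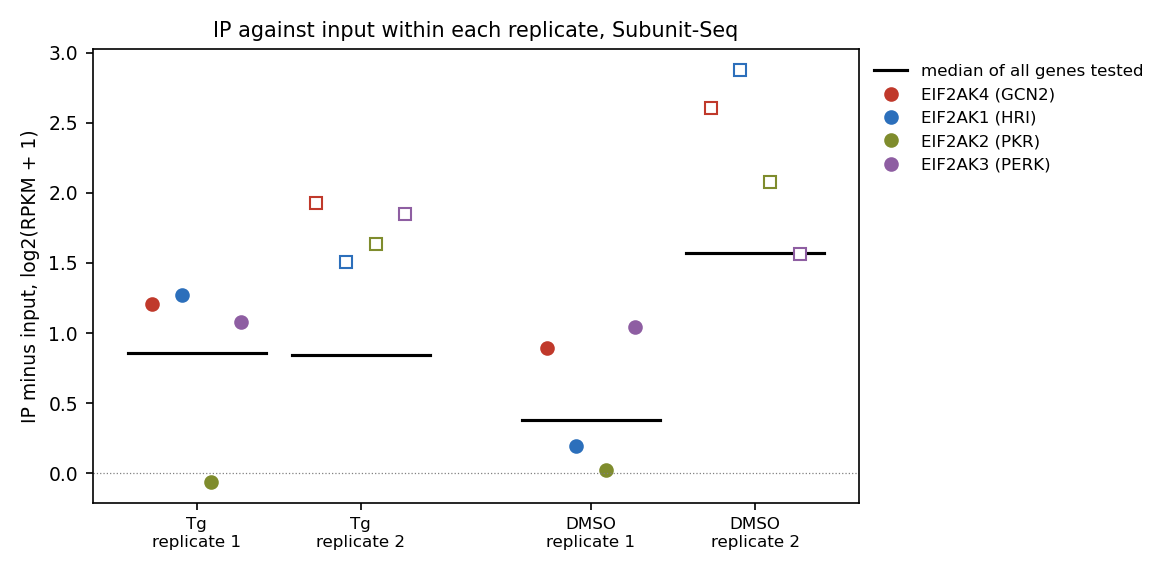
Difference of IP from input on the log2(RPKM + 1) scale within each replicate number, with Tg at the left and DMSO at the right; points are the 4 kinases, black lines the median of the 9813 genes tested. EIF2AK4 lies above the line in all 4 columns, and the columns of replicate 2 are higher than those of replicate 1 for each kinase.

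Recovery moved with gene length. With the genes divided by gene-model length into 5 groups of 1960, the median difference of IP from input was 0.06 for the shortest, then 0.70, 1.05 and 1.15, and 1.25 for the longest. Spearman's rho across 9800 genes, which share the same 8 libraries, was 0.455. EIF2AK4 and EIF2AK2 belong to the longest group (length percentiles 97.3 and 95.6), and EIF2AK1 and EIF2AK3 to the next (69.5 and 68.2). EIF2AK4 at 1.66 was above the median of its group and EIF2AK2 at 0.92 below it. The part of length in these values was not tested.

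Shares within a library do not depend on its scaling. EIF2AK4 made up 14.0 and 14.4% of the RPKM summed over the 4 kinases in IP Tg and 21.5 and 16.6% in IP DMSO, against 11.5 and 6.79% in input Tg and 13.4 and 6.42% in input DMSO. The 4 IP shares were all above the 4 input shares, the closest being 14.0% in IP Tg and 13.4% in input DMSO, both of replicate 1. This measure is defined on the 4 kinases only, so no share over all genes stands beside it. The part of gene length in it was not tested. EIF2AK4 ranked second after EIF2AK1 in 4 of 4 IP libraries, while it was above EIF2AK2 in 2 of 4 inputs and in 1 of 8 RNA-Seq libraries. In RNA-Seq its share was 15.2 and 14.3% in DD Tg, 13.5 and 11.8% in DD DMSO, 13.7 and 9.36% in WT Tg, and 14.6 and 13.5% in WT DMSO. The share of EIF2AK1 averaged 67.7 ± 8.28% in IP Tg and 66.3 ± 0.261% in IP DMSO, against 74.3 ± 9.39% in input Tg and 79.6 ± 5.92% in input DMSO (SD, n = 2 each).

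**Figure D4:**
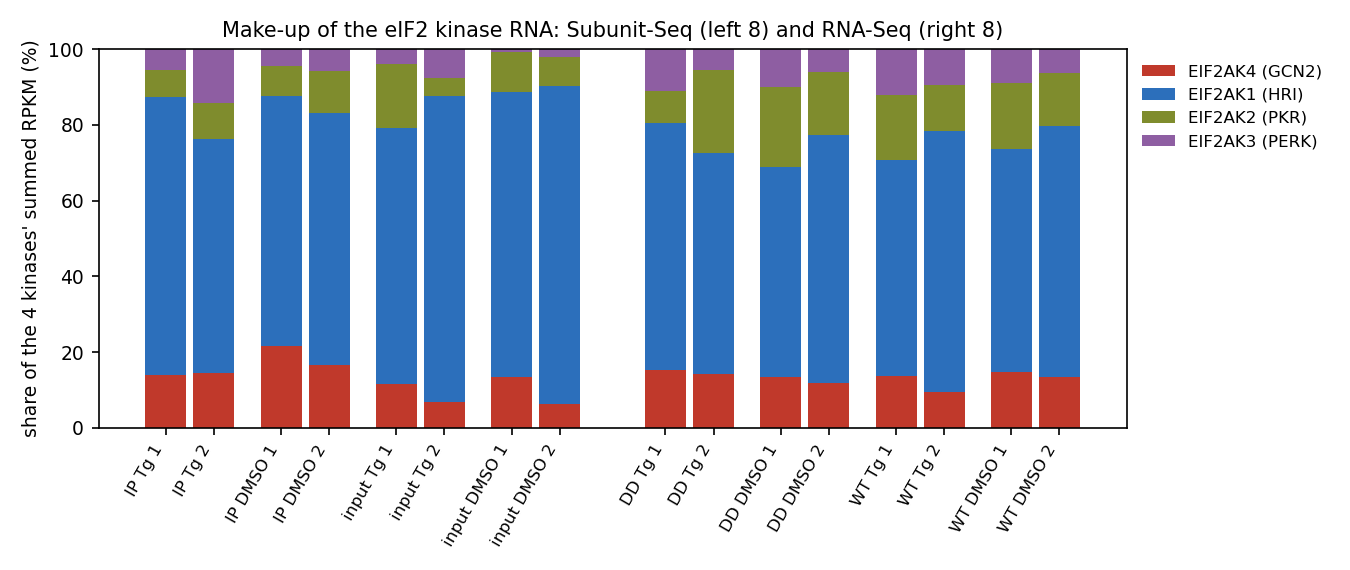
Share of each kinase gene in the RPKM summed over the 4 genes (percent), for the 8 Subunit-Seq libraries at the left and the 8 RNA-Seq libraries at the right; the number after each group is the replicate. EIF2AK1 takes the largest share in every bar, and EIF2AK4 at the base is larger in the IP bars (14.0 to 21.5%) than in the input bars (6.42 to 13.4%).

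The last question was whether thapsigargin changed what eIF3d held. The change of EIF2AK4 recovery, IP minus input with Tg less the same with DMSO, was −0.18 ± 0.86, that of EIF2AK1 −0.15 ± 0.94 and that of EIF2AK2 −0.26 ± 0.85, and limma called 0 of these 3 and 0.0611% of genes. The replicates went opposite ways for EIF2AK4: its ratio of IP to input with Tg was 1.33 times that with DMSO in replicate 1 and 0.267 times in replicate 2. EIF2AK1 did likewise, at 2.17 times in replicate 1 and 0.315 times in replicate 2. EIF2AK2 was lower with Tg in both, at 0.928 and 0.462 times. EIF2AK3, below the filter, was at 0.494 and 0.225 times, with 10 and 5 reads in input DMSO. On the log2(RPKM + 1) scale its change had the other sign, at 0.031 and 0.28. Without input DMSO replicate 2 the change was 0.46 for EIF2AK4, 0.83 for EIF2AK1 and 0.29 for EIF2AK2. The EIF2AK4 change was also above 0 without IP DMSO replicate 2 (0.31) or IP Tg replicate 1 (0.13), so its sign differed between replicates and turned with any of 3 single libraries.

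Within the IP alone, EIF2AK4 with Tg was at 1.01 of DMSO (counting interval 0.930 to 1.09) in replicate 1 and at 0.802 (0.734 to 0.875) in replicate 2, a difference of −0.13 ± 0.61. In the inputs it was at 0.760 (0.629 to 0.916) and at 3.0 times DMSO (1.99 to 4.61), a difference of 0.05 ± 0.61. EIF2AK3 was the kinase whose Tg and DMSO libraries separated, in the IP and, by larger ratios, in the inputs. Its IP Tg values of 3.01 and 4.92 RPKM were above its IP DMSO values of 1.53 and 2.15 RPKM, 1.97 times (1.54 to 2.52) in replicate 1 and 2.29 times (1.92 to 2.75) in replicate 2. In the inputs it was 3.98 times as high with Tg as with DMSO (1.85 to 9.29) in replicate 1 and 10.2 times (4.04 to 33.0) in replicate 2, on 25 against 10 reads and 42 against 5. Tested with no filter on low values, the EIF2AK3 differences of 0.79 ± 0.42 in the IP and 0.63 ± 0.42 in input did not pass (limma adjusted p = 1 in the IP and 1.00 in input). Among the genes above the filter both Tg libraries were above both DMSO libraries for 18.1% in the IP and 6.39% in the inputs, and for 0 of the 3 other kinases in either. Limma called 0 of the 3 kinases in the IP (0.0713% of genes, of which 0.051% higher and 0.0204% lower) and in input (0.051%).

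EIF2AK3 also took a larger share of the kinase RNA with Tg, 5.49 and 14.1% in IP Tg against 4.33 and 5.70% in IP DMSO, and 3.77 and 7.47% in input Tg against 0.839 and 2.08% in input DMSO. The IP shares overlapped and the input shares did not. Relative to all genes of the pair, EIF2AK3 in the IP lay 0.53 and 0.87 above the median, and in input 0.99 above it in replicate 1 and 0.03 below it in replicate 2.

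**Figure D5:**
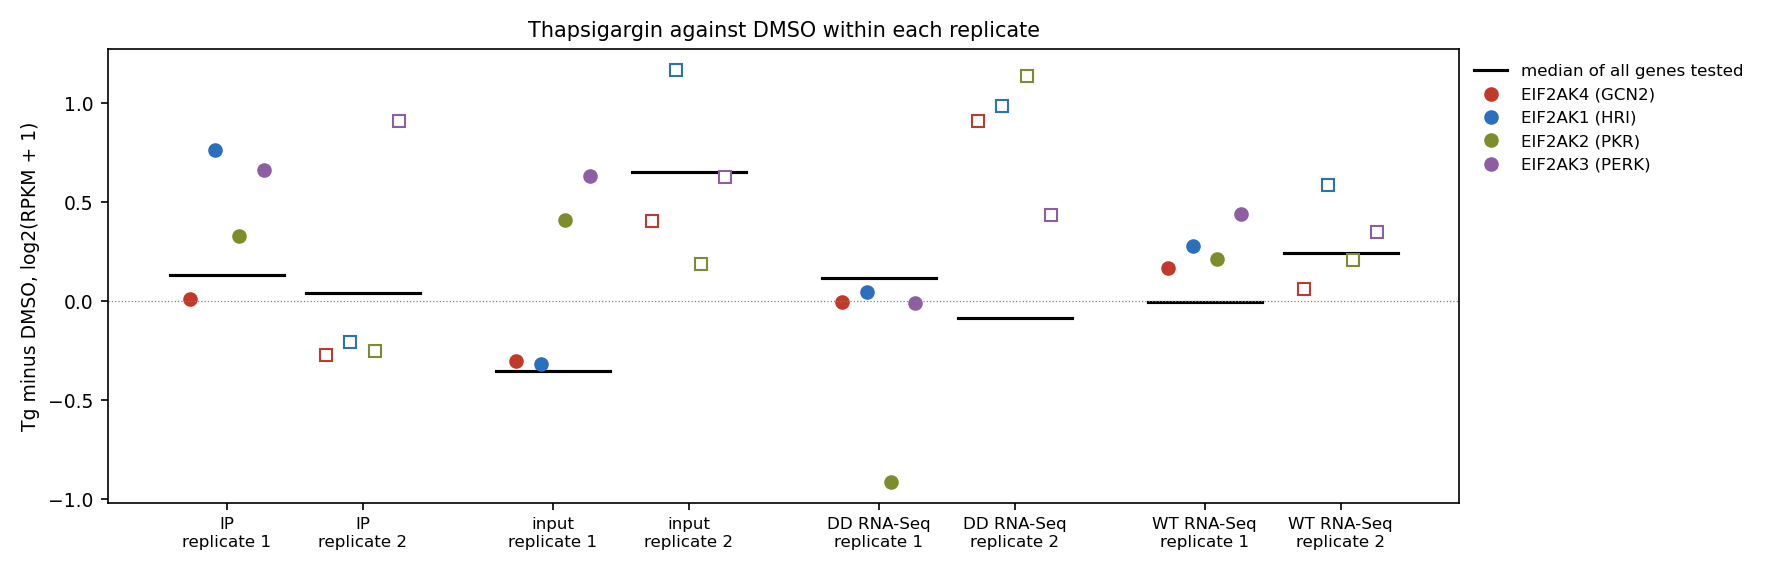
Difference of Tg from DMSO on the log2(RPKM + 1) scale within each replicate number, for IP, input, DD RNA-Seq and WT RNA-Seq; points are the 4 kinases, black lines the median of all genes tested. EIF2AK3 is above 0 in 7 of the 8 columns, and EIF2AK4 lies between −0.30 and 0.91.

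The genes that act on the kinases were counted from a list of 14, of which 13 passed the filter in Subunit-Seq. Over both treatments 8 of 13 were called higher in IP than in input and 0 lower, beside 46.5% of all genes higher, with a median difference of 1.34 against 0.92. GCN1, the ribosome-bound partner that activates GCN2, had 15.2 and 23.5 RPKM in IP Tg and 12.4 and 26.9 RPKM in IP DMSO, against 5.07 and 4.73 RPKM in input Tg and 5.49 and 1.26 RPKM in input DMSO, a difference of 2.05 ± 0.46. IMPACT, an inhibitor of GCN2, differed by 0.88 ± 0.46 and did not pass. GCN1 was above EIF2AK4 in every IP library. The PERK-binding chaperone HSPA5 differed by 2.74 ± 0.45, DNAJC3, an ER co-chaperone that inhibits PERK, by 1.83 ± 0.44 and the adaptor NCK1 by 0.99 ± 0.42. Of the genes around PKR, the RNA editing enzyme ADAR (1.89 ± 0.47) passed, and the PKR activator PRKRA (0.21 ± 0.46) and the PKR inhibitor TARBP2 (0.39 ± 0.47) did not. Of those around HRI, the chaperones HSP90AA1 (3.02 ± 0.41) and HSPA8 (1.34 ± 0.44) passed, and DELE1 (0.79 ± 0.44), which relays mitochondrial stress to HRI, and the protease OMA1 (0.39 ± 0.42) did not. MAP3K20, a kinase that senses colliding ribosomes, was below the filter, at 3.03 and 1.74 RPKM in IP Tg and 2.87 and 1.65 RPKM in IP DMSO, against 1.22 and 0.506 RPKM in input Tg and 1.58 and 0.213 RPKM in input DMSO.

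Of 16 genes downstream of the kinases, 15 passed the filter, and 8 were called higher in the IP and 0 lower over both treatments, beside 46.5% of all genes higher, with a median of 1.01 against 0.92. They were the eIF2 subunit EIF2S3 (1.51 ± 0.47), the eIF2B subunit EIF2B5 (1.01 ± 0.44), PPP1R15A (1.85 ± 0.47) and PPP1R15B (1.93 ± 0.45), which direct the phosphatase to eIF2, the transcription factors ATF4 (1.62 ± 0.33) and DDIT3 (1.22 ± 0.47), CHAC1 (1.15 ± 0.47) and SESN2 (1.74 ± 0.47). In the inputs the pseudokinase TRIB3, a target of ATF4 and DDIT3, had 65.3 and 127 RPKM with Tg and 16.1 and 6.56 RPKM with DMSO, a difference of 3.02 ± 0.66 (limma adjusted p = 0.00985), and 14 of the 15 genes were above the all-gene median. TRIB3 was the only gene of either list called in that contrast, where 5 genes (0.051%) were called in all. The difference was 1.97 to 4.08 without single libraries and 2.78 to 3.30 under the other alternatives, but the call held in only 2 of the 8 fits that left out a library (without either IP DMSO library) and in 1 of 8 other alternatives (the 5 RPKM minimum). In RNA-Seq 0 genes of either list passed in any contrast. ATF4, the downstream gene with the highest level, had 359 and 151 RPKM in DD Tg against 262 and 320 RPKM in DD DMSO, and 224 and 314 RPKM in WT Tg against 268 and 258 RPKM in WT DMSO. DDIT3 was at 21.4 and 14.3 RPKM in DD Tg against 33.5 and 41.8 RPKM in DD DMSO, and at 20.4 and 31.2 RPKM in WT Tg against 16.7 and 24.3 RPKM in WT DMSO. In RNA-Seq 4 of 15 downstream genes were above the all-gene median for Tg against DMSO in DD cells and 11 of 15 in WT cells.

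No m6A site was listed on the strand of any of the 4 kinase genes in any of the 4 lists. The lists held 5050 sites in DD Tg, 1796 in DD DMSO, 1572 in WT Tg and 3000 in WT DMSO, and of 6827 genes at 1 RPKM or more with a known strand, 17.3% had a site on their own strand in DD Tg, 4.56% in DD DMSO, 4.17% in WT Tg and 9.54% in WT DMSO. On the opposite strand, chr7:6023651 (plus) was listed in all 4 lists, and chr7:6023507 and chr7:6023546-6023547 only in DD Tg. These positions lie where EIF2AK1 overlaps AIMP2, a plus-strand gene for a scaffold protein of the tRNA synthetase complex. Inside the span of EIF2AK2, chr2:37148930 (plus) was listed only in WT DMSO, within the pseudogene ARL14EPP1. The nearest entry to EIF2AK4, chr15:40036375 (minus) in DD DMSO, lay 784 bases past its end in SRP14, a subunit of the signal recognition particle. The lists carry no score, coverage or replicate, so an absent entry says only that no site was called.

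The genes most like each kinase across libraries were found by Pearson's r of log2(RPKM + 1), centred within replicate number, over 8 libraries and among genes at a mean of 5 RPKM or more. In RNA-Seq they were WDR75, DSG2 and CUL1 for EIF2AK4 (r = 0.996, 0.996 and 0.994), PIGK, SEPTIN2 and DYNC1LI1 for EIF2AK1 (0.989, 0.986 and 0.985), NORAD, MAP1B and RAB6A for EIF2AK2 (0.984, 0.984 and 0.978), and ATG4C, SFXN1 and MRPS10 for EIF2AK3 (0.952, 0.950 and 0.943). Between kinases r was highest for EIF2AK4 with EIF2AK1 (0.944) and lowest for EIF2AK2 with EIF2AK3 (0.666). In Subunit-Seq the most alike were HSPH1, ADIPOR2 and FAM20B for EIF2AK4 (0.999, 0.999 and 0.997), KIF23, CPSF7 and GATAD2A for EIF2AK1 (0.997, 0.996 and 0.996), LIN28B, SKIC3 and FAM8A1 for EIF2AK2 (0.987, 0.983 and 0.981), and GPX8, KRT10-AS1 and TGDS for EIF2AK3 (0.999, 0.994 and 0.986). Between kinases r was again highest for EIF2AK4 with EIF2AK1 (0.946) and lowest for EIF2AK2 with EIF2AK3 (0.776). All points share the depth and composition of the same libraries, and these are the closest of 3785 to 6052 candidate genes, so the values are descriptive.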

How the data were processed

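RNA-Seq (8 libraries) and Subunit-Seq (8 libraries) were deposited by the authors as RPKM per Ensembl gene, 58721 genes, of which symbols were found for 99.1%; Subunit-Seq came as 1 table per replicate number. Cutadapt, STAR, BWA, DESeq2 and GRCh38 are named in the submitters' processing notes, without versions or roles; the gene counter and site caller are not given in the sources used here. RPKM values of a library were whole multiples of what 1 read is worth (within 0.02 of a read, 100% of values of 26179 genes), which gave reads, depth and gene-model length. m6A sites were deposited as positions; 11, 3, 3 and 1 duplicates were removed in DD Tg, DD DMSO, WT Tg and WT DMSO.

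Log2(RPKM + 1) was fitted with limma 3.58.1 in R 4.3.3 (eBayes with trend; all 4 groups of an assay in 1 fit; two-sided; Benjamini-Hochberg over all genes tested; threshold 0.05) for genes averaging 1 RPKM or more in the 8 RNA-Seq libraries (9637) or in the 4 inputs (9813). Replicate number was a block for Subunit-Seq, since its tables were deposited separately, and a prior estimated as infinite, so its p-values use the spread pooled over genes. Levels are compared between genes per length; log2 differences are given as value ± SE. Ratios within a replicate number have exact 95% intervals from the reads, which cover counting error only. Sites were assigned to RefSeq gene spans; the strand of EIF2AK1, which has no promoter entry, was taken from general annotation. The code of the fits was checked on simulated data, which does not bear on the spread of these libraries. The members and gene lists were chosen with earlier results of these data known. The values of 1 gene counted in the lists are not reported here. Named genes were the 4 kinases, EIF3D, list members that passed a test and the 3 genes most like each kinase; list members given that did not pass, and DDIT3 in RNA-Seq, were chosen after their values were seen. The alternatives tried were 2 other scalings, another pseudocount (0.1), no filter or 5 RPKM, voom on the recovered reads, the spread of each gene alone, the block, each library left out, and other assignments of sites. Python 3.11.15 was used for the other steps.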

Additional observations from a re-analysis of the deposited data

How the results depend on the processing

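The kinase calls rested on how libraries were scaled and how the spread was estimated. EIF2AK4 higher in IP than in input over both treatments (1.66) was not called under median-of-ratios scaling (0.81) or with the spread of each gene alone (1.66). It was called under the other alternatives that tested it. The minimum of 5 RPKM left it out, at a mean of 1.79 RPKM in the inputs. EIF2AK1 (1.46) was not called under median-of-ratios scaling (0.19), with no filter, with the spread of each gene alone or without the replicate block (1.46 each). With no filter EIF2AK3 was called (1.38), in a fit that called 5381 of 23159 genes. With DMSO, EIF2AK4 (1.75) was not called under median-of-ratios scaling (0.98), a pseudocount of 0.1 (2.74), voom (2.94), no filter, the spread of each gene alone or no replicate block (1.75 each). Uncalled differences changed sign under median-of-ratios scaling for EIF2AK2 in IP against input with Tg (−0.044) and IP Tg against IP DMSO (−0.029), and with mitochondrial genes left out for its RNA-Seq interaction (0.049).

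Genes called in IP against input with Tg (1591) were 77 under median-of-ratios scaling, 799 without mitochondrial genes, 447 with a pseudocount of 0.1, 0 with no filter, 408 from 5 RPKM, 191 with voom, 0 with the spread of each gene alone and 36 without the block. With DMSO (2272) they were 19, 1461, 1332, 0, 695, 666, 0 and 24 in the same order. Over both treatments (4945) they were 2158 under median-of-ratios scaling, 1499 from 5 RPKM and 0 with the spread of each gene alone. The 6 genes of the change with Tg and the 5 of input Tg against input DMSO were 0 under each of these except the 5 RPKM minimum. The 7 of IP Tg against IP DMSO were 1 with a pseudocount of 0.1, 2 from 5 RPKM and 0 otherwise. Counting m6A sites on either strand gave 3 for EIF2AK1 in DD Tg, 1 in each other list, and 1 for EIF2AK2 in WT DMSO. The cause of these shifts was not tested.

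Leaving out each library in turn, RNA-Seq differences ranged as follows. For Tg against DMSO in DD cells EIF2AK2 gave −0.51 to 0.74, in WT cells EIF2AK4 gave −0.27 to 0.51, EIF2AK1 −0.031 to 0.90 and EIF2AK2 −0.20 to 0.63, and over both genotypes EIF2AK2 gave −0.15 to 0.48. For DD against WT, EIF2AK4 gave −0.17 to 0.51 and EIF2AK1 −0.081 to 0.85 with DMSO, and EIF2AK2 −0.31 to 0.94 with Tg. The interaction gave −0.057 to 0.73 for EIF2AK4, −0.38 to 0.55 for EIF2AK1 and −0.72 to 0.53 for EIF2AK2.

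In Subunit-Seq, IP against input gave 1.11 to 2.39 for EIF2AK4, 0.55 to 2.52 for EIF2AK1 and 0 to 5073 called genes with DMSO (0 without input DMSO replicate 2). With Tg it gave 1.26 to 1.88, 1.22 to 1.55 and 114 to 2905 genes. Over both treatments it gave 1.34 to 1.98, 0.97 to 1.95, 0.51 to 1.33 for EIF2AK2, and 1873 to 6367 genes. The change with Tg gave −0.82 to 0.46 for EIF2AK4, −1.13 to 0.83 for EIF2AK1, −1.08 to 0.56 for EIF2AK2 and 0 to 19 genes. Input Tg against input DMSO gave −0.59 to 0.69, −0.55 to 1.41, −0.40 to 1.00 and 0 to 33 genes, and IP Tg against IP DMSO −0.63 to 0.37, −0.53 to 1.09, −0.78 to 0.86 and 0 to 24 genes.

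The labels do not say what a replicate number marks. Differences between replicates 1 and 2 correlated between groups at 0.134 to 0.864 in RNA-Seq and 0.002 to 0.510 in Subunit-Seq. With the replicate block RNA-Seq called 0 genes in all 7 contrasts. Depth limits EIF2AK3 most: it had 5 reads in input DMSO replicate 2 and 6 in WT DMSO replicate 2.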
